A study of Mus musculus with 8 samples.

Results

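The 10 protein-coding genes described here encode the enzymes and carriers by which mitochondria take up and oxidise fatty acids. They were chosen by name, as Cpt1b and Cpt2 of the carnitine shuttle, the acyl-CoA dehydrogenases Acadvl, Acadl and Acadm, Hadha and Hadhb of the trifunctional protein, the thiolase Acaa2, and Etfa and Etfdh of the electron transfer step. All 10 were present among the 54531 features of the authors' deposited table, and 9 of them were tested there. Short RNAs were sequenced from hearts of C57BL/6 mice at 24 weeks of age, 4 of each genotype, wild type and *Rnaseh1* knockout. RNase H1 cuts the RNA strand of RNA-DNA hybrids. The knockout mice carry a loxP-flanked *Rnaseh1* exon and the Ckmm-cre transgene, in which the muscle creatine kinase promoter drives Cre recombinase in heart and skeletal muscle, so that other cell types of the heart should keep the gene. The labels call the controls +/+, whereas the paper gives L/L for them, animals with the loxP alleles that lack Cre. The labels name heart tissue as the source, whereas the methods describe RNA of isolated heart mitochondria for this assay.

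A small RNA library holds fragments of mRNAs, so each value counts reads of such fragments and need not follow the whole mRNA. Values per library could not be assigned to a genotype and are not given. Each level is the authors' mean, a read count normalised by size factors and then averaged over the 8 libraries of both genotypes, and each fold change is the log2 ratio of knockout over wild type with its standard error (SE) and the adjusted p of the DESeq2 Wald test (Benjamini-Hochberg), as deposited. A gene was called changed at an adjusted p under 0.05. From the mean and the fold change, a mean per genotype was derived for equal group sizes. It is called the implied mean and has no error of its own. Of the 2727 features tested, 83 were called lower and 79 higher. *Rnaseh1* had a mean of 0 and gave no check of the genotypes. Library depth was not analysed.

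In beta-oxidation, a fatty acid joined to coenzyme A (CoA) is shortened from one end in a repeating cycle of dehydrogenation, hydration, a second dehydrogenation and thiolysis, which releases acetyl-CoA. Long chains enter the mitochondrial matrix as carnitine esters, and the electrons of the dehydrogenases reach the respiratory chain through the electron transfer flavoprotein (ETF) and through NADH. The adult heart draws most of its energy from this pathway, and its enzymes are encoded in the nucleus.

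The sequences that bear on the members are shown first. Hadha and Hadhb lie head to head on chromosome 5, on opposite strands, with 85 bases between their annotated ends. This stretch, chr5:30155163-30155247 on the plus strand (GRCm38.p6), lies in no gene of GENCODE M21 and is shown because it separates the annotated ends of the pair. The ends are those of the authors' annotation, whereas the letters came from a RefSeq promoter window. Capitals mark GGGCGG, the letters of a GC box.
Hadha-Hadhb: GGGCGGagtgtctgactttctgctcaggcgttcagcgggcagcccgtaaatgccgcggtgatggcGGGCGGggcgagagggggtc

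RefSeq promoter windows of 300 bases, most of each upstream of the start (GRCm38.p6), matched 8 of the 10 members, all but Acaa2 and Cpt1b. On either strand, the core GCATGCGC bound by nuclear respiratory factor 1 (NRF-1) stood in 3 of the 8 windows (Etfdh, Acadm and Etfa) and in 2.71% of all 32851 windows. The Acadm match lies upstream of the annotated gene, at chr3:153944784-153944811 on the minus strand. The Etfdh match, at chr3:79628876-79628905 on the minus strand, lies in an annotated Etfdh exon of a transcript that starts further upstream. Capitals mark the core, which in Etfdh is read on both strands with overlapping letters.
Acadm: ggagcaggacGCATGCGCagagggcctt
Etfdh: tgcttctaggGCGCATGCGCacacgcgaga

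The half-site AGGTCA of nuclear receptors stood in 2 of the 8 windows (Acadm and Acadvl) and in 16.3% of all windows. The longer AAGGTCA, which contains that half-site, stood in 1 (Acadm) and in 4.72%. The direct repeat AGGTCANAGGTCA stood in 0 of the 8 windows and in 0.0396% of all. GGGCGG stood in 5 of the 8 windows (Acadl, Etfdh, Cpt2, Hadha and Hadhb) and in 35.7% of all. These matches describe letters in the windows, and binding was not tested.

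Reads assigned to Hadhb, Acaa2 and Acadm were lower in the knockout, each at about 24% of wild type, and no member was called higher. These genes encode the thiolase-bearing subunit of the trifunctional protein, the thiolase of the final step and the medium-chain dehydrogenase. Over Hadhb and its pseudogene copies Gm13910 and Gm9108, described below, the summed implied mean was 35.6% of wild type. The other 6 members tested had log2 fold changes between -1.80 and -0.70 and were not called. Of the 9 members tested, 3 were called lower, against 3.04% of all features tested and 2.17% of the 2257 nuclear protein-coding features tested. These shares were not matched for read level, and the members were chosen with earlier results of these data known. With p adjusted over only the 444 features with a mean of at least 10, 89 were lower, among them 4 of 5 members. All 9 fold changes were negative, with a median of -1.76, beside a median of -0.04 over nuclear protein-coding features, of which 1162 were negative and 1095 positive. The unadjusted p was under 0.05 for 7 of the 9, and for 270 of the 2257 nuclear protein-coding features. Among the ordered fold changes of protein-coding features, the members lay between percentile 3.23 (Hadhb) and percentile 25.5 (Acadl), 5 of them below percentile 10. Summed over the 9 tested, the implied means came to 158 in wild type and 60.0 in the knockout, or 38.0% of wild type.

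**Figure D1:**
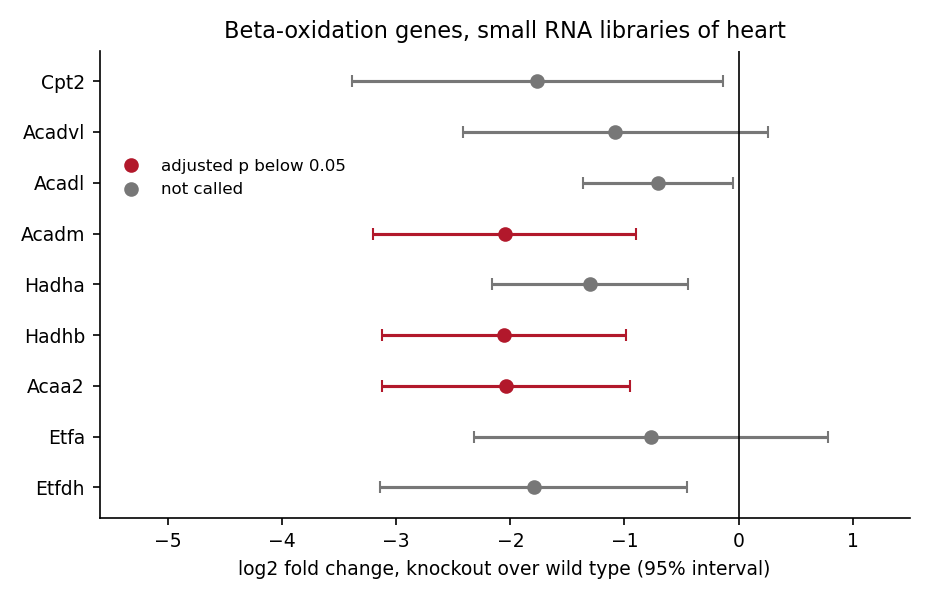
Log2 fold change of knockout over wild type (horizontal axis) for the 9 members tested, from the entry step at the top to electron transfer at the bottom, with 95% intervals from the deposited standard errors. Red marks an adjusted p below 0.05 (Acadm, Hadhb and Acaa2), grey the members not called, and only the intervals of Acadvl and Etfa include 0.

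The entry step gave no call. Cpt2, the inner-membrane enzyme that returns the acyl chain from carnitine to CoA (ENSMUSG00000028607, chromosome 4, 107903981 to 107923610, minus strand), had a mean of 4.71. Its implied means were 7.27 in wild type and 2.14 in the knockout, with a fold change of -1.76 (SE 0.83, adjusted p = 0.279). At that SE a fold change beyond 2.47 in size would have been needed for a call. Cpt1b, the muscle form of the outer-membrane enzyme that joins long chains to carnitine (ENSMUSG00000078937, chromosome 15, 89416405 to 89425863, minus strand), was nearly without reads, with a mean of 0.175. Its fold change of 0.08 had an SE of 3.53, and DESeq2, as run by the authors, gave it no adjusted p. Of the 3372 exonic bases of Cpt1b, 2744 (81.4%) are shared on the same strand with Gm44502, an overlapping gene (chromosome 15, 89416405 to 89429696) named here after its value was seen. Gm44502 had a mean of 0. Counting was by strand, with no other option given, and featureCounts by default leaves out a read that overlaps more than 1 gene. The part of this overlap in the low value of Cpt1b was not tested.

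The acyl-CoA dehydrogenases, which carry out the first oxidation at different chain lengths, gave 1 call among 3 genes, and no pair of them differed in fold change at an adjusted p under 0.05. Acadl, the long-chain enzyme (ENSMUSG00000026003, chromosome 1, 66830839 to 66863277, minus strand), had the highest mean of the 10, 25.5, with reads as assigned to each gene. Its implied means of 31.6 in wild type and 19.4 in the knockout gave the smallest change among those tested, -0.70 (SE 0.34, adjusted p = 0.291), or 61.4% of wild type with a 95% interval of 38.9% to 96.9%. Acadvl, the very-long-chain enzyme of the inner membrane (ENSMUSG00000018574, chromosome 11, 70010183 to 70015411, minus strand), had implied means of 10.4 and 4.90 and a fold change of -1.08 (SE 0.68, adjusted p = 0.530). It shares 1151 exonic bases with Dvl2 on the opposite strand, which was counted separately and had a mean of 0.401. Acadm, the medium-chain enzyme (ENSMUSG00000062908, chromosome 3, 153922357 to 153944632, minus strand), had implied means of 21.8 and 5.26. The log2 value fell by 2.05 (SE 0.59, adjusted p = 0.0120), to 24.2% of wild type with a 95% interval of 10.8% to 53.8%. A processed pseudogene, Gm5131 on chromosome 8, matches 681 bases of an Acadm transcript at 93.5% identity and had a mean of 4.39 and a fold change of -1.18 (SE 0.77, adjusted p = 0.568).

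The trifunctional protein of the inner membrane joins the last 3 steps of the cycle for long chains. Its alpha subunit Hadha (ENSMUSG00000025745, chromosome 5, 30118304 to 30155162, minus strand) carries the hydratase and the 3-hydroxyacyl-CoA dehydrogenase. Hadha had a mean of 22.0, implied means of 31.3 and 12.7 and a fold change of -1.30 (SE 0.44), with an adjusted p of 0.0507 that lay just outside the threshold. Its 95% interval ran from -2.16 to -0.44, and at that SE a size of 1.31 was needed for a call. The beta subunit Hadhb (ENSMUSG00000059447, chromosome 5, 30155248 to 30184593, plus strand) carries the thiolase. Hadhb had a mean of 12.9 and implied means of 20.7 and 4.99, and it fell by 2.05 (SE 0.55, adjusted p = 0.00461). Although one subunit was called and the other was not, their fold changes differed by 0.75 with a 95% interval of -0.62 to 2.13, and no difference between them was detectable. Acaa2, the matrix thiolase that acts mainly on medium chains (ENSMUSG00000036880, chromosome 18, 74779197 to 74806207, plus strand), had implied means of 18.1 and 4.42. It fell by 2.04 (SE 0.56, adjusted p = 0.00649), to 24.4% of wild type.

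**Figure D2:**
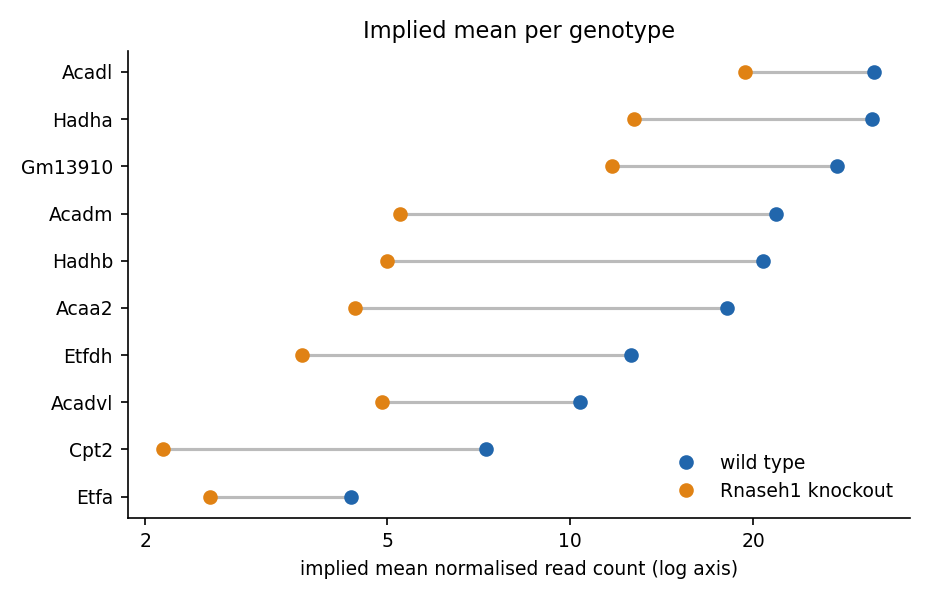
Implied mean normalised read count (horizontal log axis) in wild type (blue) and knockout (orange) for the 9 members tested and for Gm13910, a pseudogene copy of Hadhb, ordered by the wild-type value. Every knockout value lies to the left, and the order at the top, Acadl then Hadha, is the same in both genotypes.

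The value of Hadhb is uncertain because of a near-identical copy. Gm13910, a processed pseudogene on chromosome 2 (108948806 to 108950233) that was picked out after its value was seen, matches a Hadhb transcript at 99.8% identity over 1428 bases. The alignment has 3 differing bases and 0 gaps, and its longest identical run is 685 bases. Counted from 1 at the start of the alignment, with the base of Hadhb first, the differences are G201A, A393G and G743A, all within the Hadhb coding sequence. The stretch around A393G is shown, at chr5:30172647-30172675 for Hadhb and chr2:108949184-108949212 for Gm13910, both on the plus strand of GRCm38 and from GENCODE M21 transcripts. Within the aligned bases, a read that covers none of the 3 differences and lies within a single Hadhb exon matches both loci equally well. Capitals mark the differing base.
Hadhb: tctgataagactccAgctcacactgtcac
Gm13910: tctgataagactccGgctcacactgtcac

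Gm13910 had a mean of 19.6, above that of Hadhb itself, with implied means of 27.4 in wild type and 11.7 in the knockout. On the log2 scale its reads also fell by 1.23 (SE 0.41, adjusted p = 0.0461), to 42.7% of wild type. A second pseudogene, Gm9108 on chromosome 15, matches 1426 bases at 97.6% identity and had a mean of 1.70 and a fold change of -0.83 (SE 1.12, adjusted p = 0.870). Over the 3 loci together the implied means were 50.3 in wild type and 17.9 in the knockout, or 35.6% of wild type, a log2 ratio of -1.49 with no error. Hadhb held 37.7% of the summed mean. The sum of the loci was therefore lower by less than Hadhb alone, and how reads were divided between them was not tested. Bowtie2 reports 1 place for a read with several equal matches and does not split reads over introns, and a processed pseudogene holds joined exons.

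Electron transfer from the dehydrogenases to ubiquinone runs through ETF and its oxidoreductase. Etfdh, the ETF-ubiquinone oxidoreductase of the inner membrane (ENSMUSG00000027809, chromosome 3, 79603788 to 79629500, minus strand), had a mean of 8.12 and implied means of 12.6 and 3.63. Its fold change was -1.80 (SE 0.69, adjusted p = 0.113), which is 28.8% of wild type with a 95% interval of 11.3% to 73.2%. Etfa, the alpha subunit of ETF (ENSMUSG00000032314, chromosome 9, 55454508 to 55512243, minus strand), was the least covered of those tested, with a mean of 3.46 and implied means of 4.36 and 2.56. Its fold change of -0.77 (SE 0.79, adjusted p = 0.819) had an interval from -2.32 to 0.78. Gm15285 and Gm15289 on chromosome 13, pseudogenes that match parts of Etfa, had means of 0.530 and 0.815. Etfb, which encodes the partner subunit of ETF and was on a list of related genes, had a mean of 1.04 and was not tested.

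Per kilobase of annotated exon, the authors' mean was highest for Acadl, at 12.7, followed by Acaa2 at 7.43 and Acadm at 3.45. Acadvl stood at 2.84 and Hadha at 2.52. Cpt2, Hadhb and Etfa had near-equal levels per kilobase, between 1.89 and 1.97, and Etfdh had 1.08. These levels carry no error, so neighbours in the order cannot be told apart from these values. The divisor was all annotated exonic bases of a gene, from 1516 for Acaa2 to 8730 for Hadha, so the order also depends on the annotation. Reads placed on the pseudogene copies of Hadhb were left out of its level. With reads as assigned to each gene, the 3 members called were neither the most nor the least covered. Among 36 pairs of members, 0 differed in fold change at an adjusted p under 0.05 (normal test with SEs combined as if independent, Benjamini-Hochberg over the pairs), and 3 did at an unadjusted p under 0.05. Each of the 3 set Acadl against a called gene. The difference from Hadhb was 1.35 with a 95% interval of 0.10 to 2.61. The smallest adjusted p over the pairs, from the DESeq2 standard errors, was 0.566. All 9 intervals included -1, a halving of the level, so the data do not separate the members by the size of their change.

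**Figure D3:**
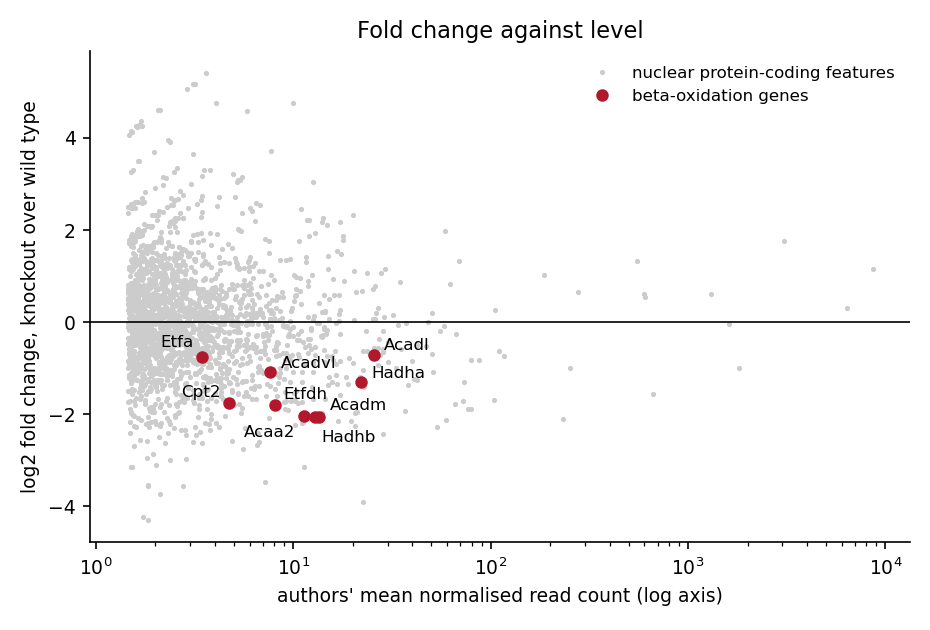
Authors' mean normalised read count (horizontal log axis) against log2 fold change of knockout over wild type (vertical axis) for nuclear protein-coding features tested (grey) and the 9 members tested (red). All members lie below 0 and above the median level of 2.74 for all features tested, and the 3 called members sit close together near a fold change of -2.04.

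Related genes of fatty acid oxidation, most of them mitochondrial and with the peroxisomal thiolase Acaa1a among those tested, were mostly negative as well, with a single call. From 4 lists of further carnitine and activation enzymes, dehydrogenases, hydratases to thiolases, and auxiliary enzymes, 34 genes were in the table and 17 were tested. Of these, 1 was called lower and 0 higher, 16 fold changes were negative and 1 was positive, and the median was -1.52. The unadjusted p was under 0.05 for 9. The gene called was Hadh, the 3-hydroxyacyl-CoA dehydrogenase for short and medium chains, with a mean of 10.3. It fell by 1.72 (SE 0.55, adjusted p = 0.0333). Over all 7 lists of the pathway, 30 genes were tested, with 1 lower, 0 higher and a median of -1.25.

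On the carnitine and activation list, 4 of 10 genes were tested, with 0 called and a median of -1.35. Acsl1, which activates long-chain fatty acids to CoA esters, stood at -1.09 (SE 0.55, adjusted p = 0.343). Crat, the carnitine acetyltransferase, stood at -1.61 (SE 0.73) and Slc25a20, the carrier that exchanges acylcarnitine for carnitine, at -1.70 (SE 0.998). Cpt1a, the liver form beside Cpt1b, was the single positive gene among those tested, at 0.29 (SE 1.15), and is named for that sign, after its value was seen. The other acyl-CoA dehydrogenases gave 0 calls among 4 tested of 9, and a median of -2.00. Ivd and Acadsb, which act on products of branched-chain amino acids, had fold changes of -2.41 (SE 0.86, adjusted p = 0.0765) and -2.19 (SE 0.86, adjusted p = 0.132), and Acad11 stood at -1.81 (SE 0.92).

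On the list with Hadh, 4 of 6 genes were tested and the median was -1.49. Echs1, the short-chain enoyl-CoA hydratase, stood at -1.46 (SE 0.64) and Acat1, the acetoacetyl-CoA thiolase of mitochondria, at -1.52 (SE 0.70), whereas Acaa1a stood at -0.51 (SE 1.19). Among auxiliary enzymes 5 were tested with 0 called and a median of -1.18. Decr1, the dienoyl-CoA reductase needed for polyunsaturated chains, stood at -2.35 (SE 0.91, adjusted p = 0.122), Mut, the methylmalonyl-CoA mutase, at -1.18 (SE 0.81), and Eci1, the enoyl-CoA isomerase for unsaturated chains, at -0.56 (SE 0.82).

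**Figure D4:**
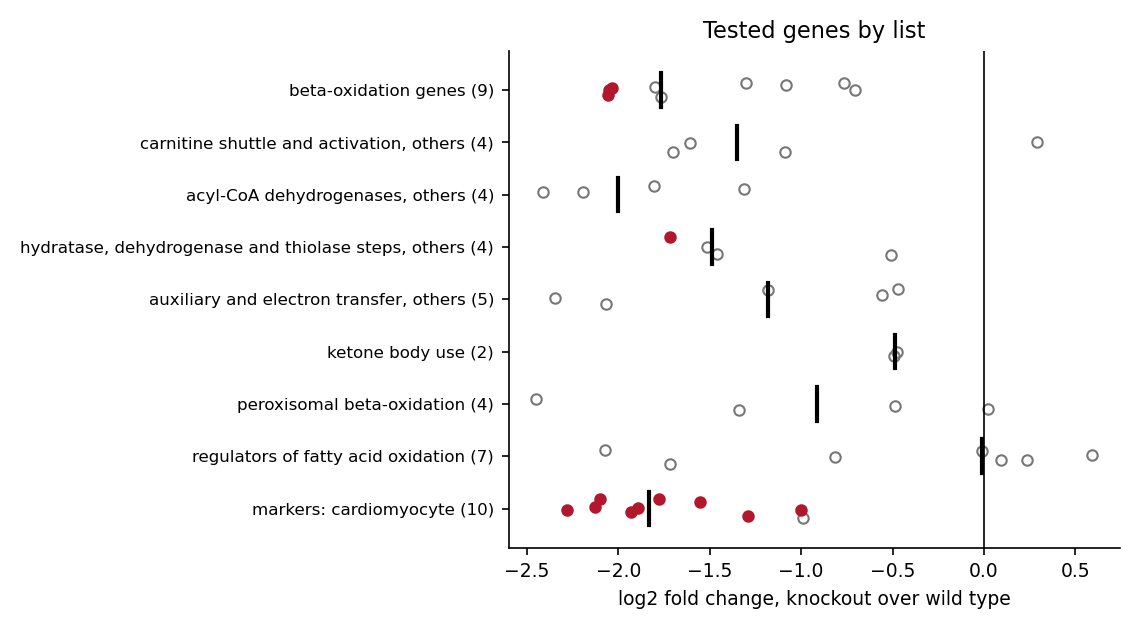
Log2 fold change of knockout over wild type (horizontal axis) for tested genes of each list, with the number tested in brackets, filled red where the adjusted p was below 0.05 and open where not, and a black bar at the median. The members' median of -1.76 lies near those of the other dehydrogenases (-2.00) and of the cardiomyocyte markers (-1.83), and the regulators have a median of -0.01.

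Markers of cardiomyocytes moved with the members. All 10 genes of a cardiomyocyte list were tested and 9 were called lower (Myh6, Myl2, Myl3, Tnnt2, Tnni3, Ttn, Pln, Atp2a2 and Ryr2). The 10 fold changes ran from -2.28 to -0.99 with a median of -1.83. Their summed mean was 3319, and none was at 0, so the heart label fitted its markers. Of 7 fibroblast and matrix markers, 4 were called higher (Col1a1, Col1a2, Col3a1 and Postn) and the median was 2.26. Leukocyte markers gave 1 higher call (Lyz2) among 3 tested and a median of 1.99. Endothelial markers gave 0 calls among 6 tested (median 0.12), smooth muscle and pericyte markers 0 among 4 (-0.04), and erythroid markers 0 among 4 (0.86). On a list of 7 skeletal muscle markers, 2 were tested, Ckm, lower at -2.26 (SE 0.45), and Acta1, higher at 2.23 (SE 0.64). The promoter of Ckm is also active in heart, so Ckm is no marker of skeletal muscle alone. The rest of that list was not tested, with means of 0.686 or lower. Adipocyte markers were near 0, with 0 of 6 tested, a highest mean of 0.666, and Cidec and Lep at 0. In bulk libraries, fewer cells of a type and less RNA per cell cannot be told apart. The methods describe RNA of isolated mitochondria, so reads of these markers need not follow the RNA content of the whole heart. The part of the cardiomyocyte signal in the members' values was not tested beyond a centring on these markers, chosen after the data had been seen. With the markers' median set to 0, 26 of all 2727 features were called lower and 1152 higher. Among the members 0 were lower and 1 was higher, and their median became 0.07. The one higher was Acadl, at 1.13 (adjusted p = 0.00366), while Hadhb stood at -0.22, Acadm at -0.22 and Acaa2 at -0.20.

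The number of members called also followed the scaling of the libraries. The authors' size factors put the median of features tested at 0.03. Centring on snoRNAs, small nucleolar RNAs that are abundant in these libraries, moved every fold change down by 0.78 and gave 7 members lower, beside 258 features (9.46%) lower in all. Scaling each genotype to its implied total moved them down by 0.89 and gave 8 members lower, all but Etfa, beside 315 features (11.6%). Centring on features outside mitochondrial DNA shifted values by 0.04 and added Hadha at an adjusted p of 0.0394, and all 36 features of mitochondrial DNA were negative as deposited. Under these scalings and under centring on nuclear protein-coding features, Hadhb, Acaa2 and Acadm were called each time and the 9 fold changes stayed negative. Each of these scalings subtracts the same amount from every fold change. That amount was positive except under centring on nuclear protein-coding features, where it was -0.0351. The signs could therefore not turn and these calls could hardly be lost, so the settings are no test of them. The sign turned for 6 of the 9 under the marker centring.

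**Figure D5:**
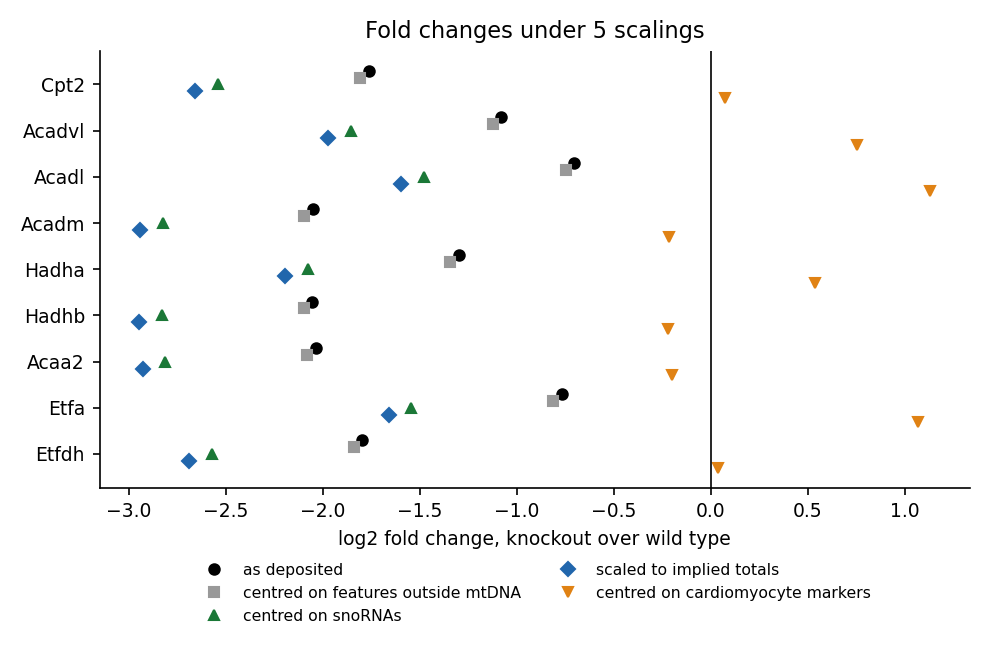
Log2 fold change of knockout over wild type (horizontal axis) for the 9 members tested under 5 scalings, 1 marker shape each. As deposited, Hadhb lies at -2.05, under the implied totals at -2.95, and under centring on cardiomyocyte markers at -0.22, where 6 of the 9 members lie to the right of 0.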

How the data were processed

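Small RNA libraries of 8 mouse hearts were sequenced, 4 per genotype, as grouped by the labels. The authors aligned reads to mm10 (GRCm38) with Bowtie2 version 2.3.4.1, counted them per gene and strand with featureCounts version 1.6.3 on an Ensembl annotation, and used R 3.5.1 to fit DESeq2 1.18.1. They deposited, as a signal, the size-factor-normalised read count of every feature, averaged over the libraries. The authors also deposited their comparison of the genotypes, namely a log2 fold change with its standard error, the Wald statistic (a score), and the p-value before and after adjustment. Deposited p-values followed from the Wald statistic (largest difference 2.72e-15) and adjusted ones from Benjamini-Hochberg (2.55e-15). The table names no direction. It was read as knockout over wild type, since the paper describes mitochondrial short RNAs as lower in the knockout and all 36 of them were negative.

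The 8 columns of values per library carry names that match no title and show no genotype, and were not used. Tests of single libraries that had been planned (limma on log2 values, edgeR) could not be run, and were replaced by the authors' test. The labels number the libraries without naming animals, and the paper gives 4 animals for each genotype. The precision of each value is given by its SE, and most features rest on few reads.

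Intervals of 95%, implied means, percentages of wild type, differences between members and the alternatives were computed with Python 3.11.15 (numpy 2.4.6, pandas 2.3.3, scipy 1.17.1, matplotlib 3.10.9). Of these, only the recentring of fold changes with its adjusted p was tested on simulated data. Exons and strands came from GENCODE M21, which held 54372 of 54531 features, 53462 with the same start and end. Copies were searched with blastn 2.17.0 (at least 90% identity over 100 bases). All members are named. Of each pathway list, genes called are named with up to 3 of the highest mean among those tested and not called, and of each of 8 marker lists, genes called. Some genes that this rule covers are not reported here. Members and lists were chosen with earlier results of these data known. The 7 alternatives planned changed the scaling, the filter on low means and the features adjusted over, and a centring on cardiomyocyte markers was added later.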

Additional observations from a re-analysis of the deposited data

How the results depend on the processing

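Members had 69 values under 8 alternatives. Of these, 48 kept their direction and their side of the threshold, 11 passed it newly, 4 lost it and 6 turned sign. The alternatives that changed only the filter or the features adjusted over left every fold change as deposited, so direction could not change there. Cpt1b, which had no deposited adjusted p, was counted as unchanged. The 48 are therefore no measure of stability. The number of members lower was 3 as deposited, 7 under centring on snoRNAs, 8 under implied totals and 0 under centring on cardiomyocyte markers. The number of other pathway genes lower was 1 as deposited, 10 under snoRNAs, 12 under implied totals, 0 without a filter on the mean and 0 under the cardiomyocyte markers. Over all features, 83 lower and 79 higher became 258 and 17 (snoRNAs), 315 and 14 (implied totals), 61 and 50 (no filter, 14456 features) and 26 and 1152 (cardiomyocyte markers). A mean of at least 10 left 444 features, with 89 lower and 70 higher and 4 of 5 members lower. Under centring on cardiomyocyte markers, chosen after the data had been seen, 6 signs turned, in Acadl (1.13), Etfa (1.07), Acadvl (0.75), Hadha (0.54), Cpt2 (0.0709) and Etfdh (0.0381). The calls of Acadm, Hadhb and Acaa2 were lost there, and that of Acadm also without a filter (adjusted p = 0.0634 over more features). Hadhb and Acaa2 were called under 7 of 8 alternatives and Acadm under 6 of 8. The adjusted p of Acadm ranged from 2.03e-05 to 0.754, of Hadhb from 2.66e-06 to 0.730 and of Acaa2 from 5.10e-06 to 0.755. The cause of the dependence on scaling was not tested.

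No paired analysis was possible because the library columns carry no genotype or replicate number. For the same reason, leaving out each library, another pseudocount and edgeR were not run, and whether a call rests on 1 library was not tested. At their SEs, the 9 members needed a log2 fold change of between 0.9997 (Acadl) and 2.47 (Cpt2) in size for a call.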

Other observations

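Peroxisomal beta-oxidation, which shortens very long and branched chains outside mitochondria, gave 0 calls among 4 genes tested of 8, with 3 negative, 1 positive and a median log2 fold change of -0.91 in the authors' deposited table. Scp2, a thiolase and lipid carrier, stood at -2.45 (SE 1.05, DESeq2 adjusted p = 0.198) and Abcd3, a peroxisomal membrane transporter, at 0.02 (SE 1.06). Of 4 genes of ketone body metabolism 2 were tested and 0 called. Oxct1, which activates acetoacetate in heart, had a mean of 12.0 and stood at -0.49 (SE 0.50, adjusted p = 0.809).

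Regulators of fatty acid oxidation gave 0 calls by DESeq2 among 7 tested of 17, with 1 at an unadjusted p under 0.05, 4 negative, 3 positive and a median of -0.01. Acacb, which makes the malonyl-CoA that inhibits Cpt1, stood at -1.72 (SE 0.64, adjusted p = 0.0970). Pdk4, the kinase that inhibits pyruvate dehydrogenase, stood at 0.59 (SE 0.58, adjusted p = 0.803), and Prkaa2, a catalytic subunit of AMP-activated kinase, at 0.09 (SE 0.55). Differences between these lists and the members were not tested.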
